A study of Mus musculus with 13 samples.

Results

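The genes of cholesterol and fatty acid synthesis were examined in the livers of Balb/c mice. The 35 genes were named by symbol for their roles in the pathways, and 34 of them are among the 11779 genes of the deposited liver table. Pnpla3, which encodes a lipase of lipid droplets, is not among the listed genes, so its level was not analysed here. The genes were divided into a sterol arm of 20 listed genes and a fatty acid arm of 14 listed genes.

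The liver samples came from 3 mice that received GalNAc-conjugated ASOs (antisense oligonucleotides) against the long non-coding RNA LL35, by the labels a mix of 5 although the list of ASOs for mice in the study holds fewer, and from 3 mice that received a GalNAc-conjugated ASO to the luciferase gene (Luc) as a control. GalNAc is a sugar that directs the oligonucleotide to hepatocytes. The dose was 150 mg/kg, which the labels give for each ASO and the methods for the total, and the livers were collected on day 5. The ASOs were injected into the tail vein, so LL35 was knocked down transiently by a pool of oligonucleotides and not by a genetic change. The age and sex of the mice are not given in the sources used here. No untreated livers and no AML12 cells (a hepatocyte line, 7 libraries) were analysed here.

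The question of the study was how liver RNA levels differ between the LL35 ASO and the Luc ASO. The deposited liver table holds the comparison made by the authors and, for each gene, a single mean over the compared libraries, with no values for single mice. The fold changes and p-values of the authors were not used here. Therefore no effect of LL35 depletion on these genes is given, and what follows describes their levels averaged over treated and control livers. The spread between mice and the read depth of each library are unknown, so it is also unknown which neighbours in an order of levels differ beyond the spread between mice, and no test was run.

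Cholesterol is built from acetyl-CoA through mevalonate, farnesyl diphosphate, squalene and lanosterol. Fatty acids are built from the same acetyl-CoA by carboxylation to malonyl-CoA and repeated condensation, and are then elongated, desaturated and stored as triglycerides. Both arms are switched on by the SREBP transcription factors, which the escort protein SCAP carries from the endoplasmic reticulum when sterols are scarce. In the liver, SREBP-1c and the carbohydrate-responsive factor ChREBP raise fatty acid synthesis after a meal, and SREBP-2 acts mainly on sterol synthesis.

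The unit of a level is the mean normalized count of the authors divided by the kilobases of merged exons in GENCODE release M21, since a longer transcript yields more reads. The median level over the 11754 listed genes with a known exon length was 51.5, and the middle range between the quartiles ran from 20.7 to 128. The median over the 34 members was 138, or 2.69 times the median of all listed genes. Of the members, 27 (79.4%) lay above that median, 17 were above the upper quartile of listed genes, 8 were in the top 10% and 1 was below the lower quartile. The members covered a range of 533 times, from Fdps at 5.89 to Fads2 at 3140.

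The labelled tissue was checked against markers of hepatocytes and other cells. All 10 hepatocyte markers were in the top 10% of listed genes, from Asgr1 at 2092 and Hnf4a at 2550 to Apoa1 at 65554 and Alb, which encodes albumin, at 519843. Markers of other liver cells were also present. All 7 markers of Kupffer cells and macrophages were listed, between 55.4 for Timd4 and 791 for Clec4f, and all 6 endothelial markers, between 41.4 for Lyve1 and 289 for Clec4g. The 6 stellate cell markers ranged from 13.8 for Des to 265 for Dcn. Of 5 cholangiocyte markers, Sox9 at 9.94 and Spp1 at 91.9 were listed, and Krt7, Krt19 and Epcam were not. Of 6 adipocyte markers, Adipoq, Lep and Retn were not listed, and the other 3 ranged from 4.59 for Plin1 to 146 for Cidec. In bulk tissue, fewer cells of a type and less RNA per cell cannot be told apart, and the part of other cells in the levels of the members was not tested.

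**Figure D1:**
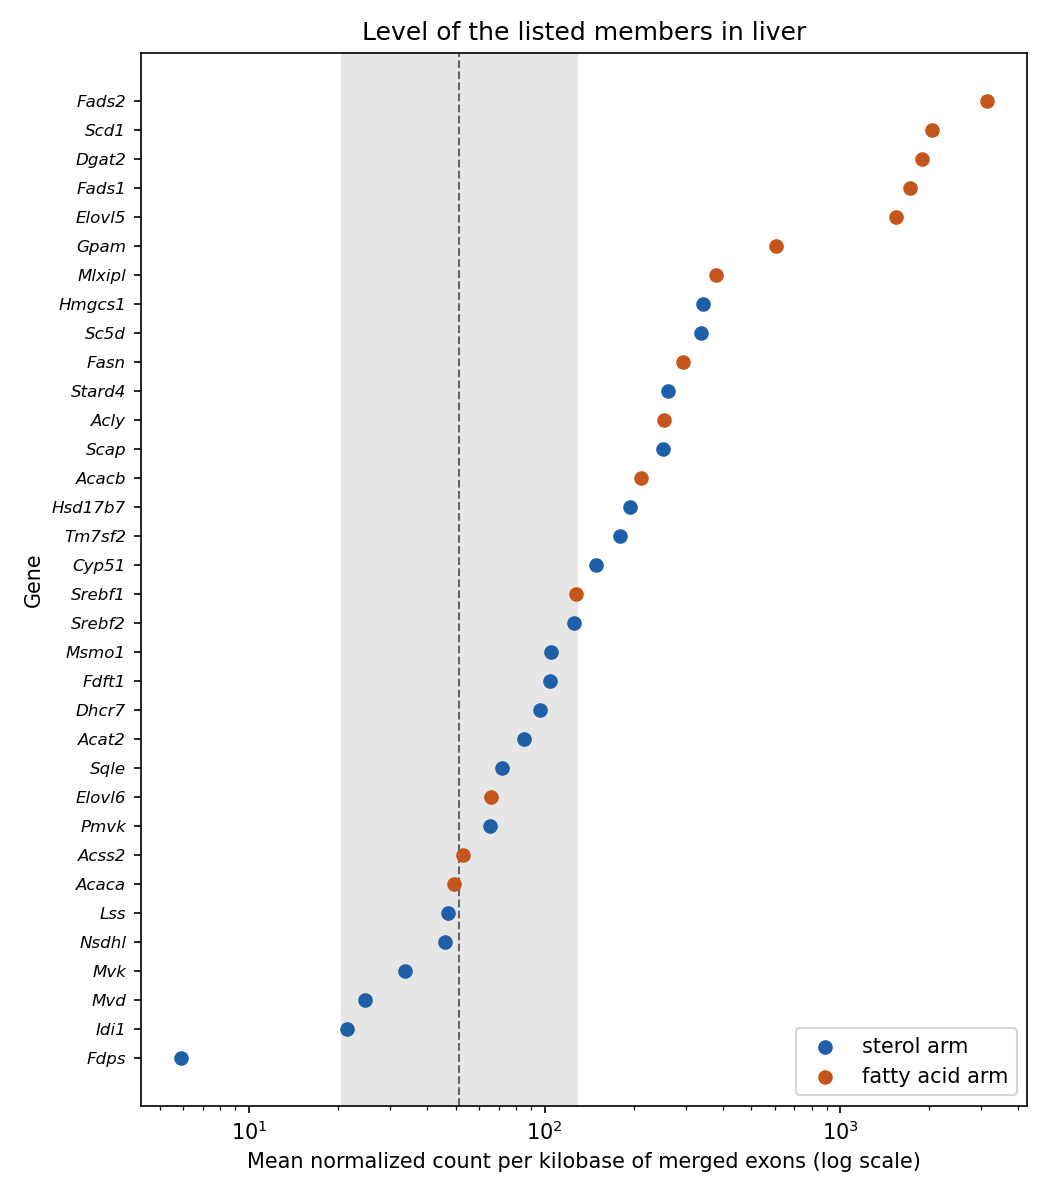
Level of each of the 34 listed members, as mean normalized count per kilobase of merged exons on a log axis, ordered by level, with the sterol arm in blue and the fatty acid arm in orange. The dashed line is the median of all listed genes (51.5) and the grey band runs between the quartiles. Each point is a mean over the compared libraries, without an error. The 5 highest genes all belong to the fatty acid arm, and the 6 lowest to the sterol arm.

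In the fatty acid arm, most genes of desaturation, elongation and glycerolipid synthesis stood above those that make palmitate, with Elovl6 as the exception. The 5 highest members of both arms were the desaturases Fads2, Scd1 and Fads1, the elongase Elovl5 and the acyltransferase Dgat2, and together they made up 69.2% of the summed level of the 34 members. These were the 5 highest members under each of the 4 length settings tried, although their order changed. Within the fatty acid arm, Fads2 held 25.4% of the summed level, Scd1 16.5%, Dgat2 15.2%, Fads1 13.9% and Elovl5 12.5%.

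Fads2 (ENSMUSG00000024665), the delta-6 desaturase that starts the synthesis of polyunsaturated fatty acids, had the highest level, 3140, at rank 135 among the listed genes, from a mean normalized count of 10346. Fads1, the delta-5 desaturase of the same route, stood at 1723. Scd1 (ENSMUSG00000037071), the delta-9 desaturase that makes oleate and palmitoleate, had a level of 2039 and rank 209. Elovl5, which elongates polyunsaturated fatty acids, stood at 1541. Elovl6, which elongates palmitate to stearate, stood at 65.8, below Fasn, Acly and Acacb, but per kilobase of coding sequence it stood at 529 and Fasn at 430. Elovl5 was therefore 23.4 times as high as Elovl6 per kilobase of exons, and 11.4 times per kilobase of coding sequence.

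The enzymes that supply acetyl-CoA or turn it into palmitate, with the related Acacb counted among them, lay between 49.5 and 295. Their median was 212, or 153 without Acacb. Fasn (ENSMUSG00000025153), the fatty acid synthase, was the highest of these at 295. Acly, the ATP citrate lyase that supplies cytosolic acetyl-CoA, stood at 253, and Acss2, which makes acetyl-CoA from acetate, at 53.1. The acetyl-CoA carboxylases form a pair of related genes. Acaca (ENSMUSG00000020532), whose product is the cytosolic form that feeds synthesis, stood at 49.5. Acacb (ENSMUSG00000042010), whose product sits at mitochondria and restrains fatty acid oxidation, stood at 212. Acacb was 4.29 times as high as Acaca per kilobase of merged exons but 2.34 times per kilobase of coding sequence, as merged exons of Acaca span 17074 bases and its coding sequence 7149 bases.

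Of the genes of glycerolipid synthesis, Dgat2, which adds the last acyl chain of a triglyceride, stood at 1884. Gpam, the mitochondrial glycerol-3-phosphate acyltransferase of the first step, stood at 607. Both were in the top 10% of listed genes. Of the regulators of this arm, Mlxipl, which encodes ChREBP, stood at 380, and Srebf1, which encodes SREBP-1a and SREBP-1c, at 128. Mlxipl was 2.97 times as high as Srebf1, a ratio that was formed after the values were seen.

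The sterol arm was lower, with a median level of 101 and a range from 5.89 to 344. Its highest gene was 58.4 times its lowest, against 63.5 times in the fatty acid arm, and with coding length these were 99.5 and 79.3 times. The sterol ratios rest on Fdps as the lowest gene. Per kilobase of merged exons, the next gene, Idi1 at 21.5, stood 3.65 times as high as Fdps. In GENCODE release M21, a gene on the same strand shares 85.9% of the coding sequence of Fdps. The part of this overlap in its level was not tested, so the ratios do not show that the arms are alike in spread. Of the 20 sterol genes, 14 lay above the median of all listed genes and 1, Hmgcs1, was in the top 10%. The summed level was spread over many genes, with 13.5% in Hmgcs1, 13.2% in Sc5d, 10.3% in Stard4 and 9.83% in Scap.

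The first steps of the pathway were uneven. Acat2, which joins 2 molecules of acetyl-CoA, stood at 85.0. Hmgcs1 (ENSMUSG00000093930), the cytosolic HMG-CoA synthase, was the highest gene of the arm at 344. With coding length, Stard4 (1887) and Sc5d (1827) stood above Hmgcs1 (1014), and in mean normalized count Scap (1866) and Sc5d (1639) did (Hmgcs1, 1581). Of the 5 genes that follow in the pathway, from mevalonate to farnesyl diphosphate, 4 were the lowest of all members. Mvk, the mevalonate kinase, stood at 33.6, and Pmvk, the phosphomevalonate kinase, at 65.5. Mvd, the diphosphomevalonate decarboxylase, stood at 24.6, and Idi1, the isopentenyl diphosphate isomerase, at 21.5. Fdps (ENSMUSG00000059743), the farnesyl diphosphate synthase, had the lowest level of the 34 members, 5.89, from a mean normalized count of 24.8. Fdps, Idi1, Mvd and Mvk were the 4 lowest members under each of the 4 length settings. The median over the genes from Mvk to Fdps was 24.6, against 105 over the 10 enzymes from Fdft1 to Dhcr7, a division made after the values were seen.

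A check for shared exons, added after the values were seen, bears on Fdps. In GENCODE release M21, the exons of Gm43738, a protein-coding gene on the same strand, cover 1124 bases of Fdps. These are 26.7% of its exon bases and 85.9% of its coding sequence. STAR leaves a read that fits 2 genes out of its gene counts. Gm43738 is not among the listed genes, the release used by the authors is not named, and the part of this overlap in the low value was not tested. Tm7sf2 shares 12.1% of its exon bases with Vps51 on the same strand, none of them coding. Srebf1 shares 1.17% with a microRNA gene. Another 9 members share exon bases only with genes on the opposite strand. The largest share with a single gene was 18.3%, in Fdft1 with Ctsb, none of these bases coding in Fdft1. Of these opposite-strand genes, Ctsb, Akap9 and Gss are listed, each with a higher mean normalized count than the member. The counts were 7234 for Ctsb and 441 for Fdft1, 2022 for Akap9 and 658 for Cyp51, and 756 for Gss and 539 for Acss2. By coding sequence, the largest opposite-strand shares were 35.1% in Hmgcs1 with Gm48342 and 20.5% in Scap with 5830462I19Rik. Gm48342 and 5830462I19Rik are not among the listed genes, and the part of the opposite-strand overlaps in the levels was not tested. The libraries were made with a directional kit, but the strand setting used for counting is not given in the sources used here.

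From squalene onward the levels were moderate. Fdft1, the squalene synthase, stood at 104 and Sqle, the squalene epoxidase and a flux-controlling step, at 71.7. Lss, the lanosterol synthase, stood at 47.0. Of the demethylation steps, Cyp51 stood at 149, Tm7sf2, a sterol C14 reductase, at 180, Msmo1 at 105, Nsdhl at 46.0 and Hsd17b7 at 195. Sc5d, the lathosterol oxidase, stood at 337, and Dhcr7, which reduces 7-dehydrocholesterol to cholesterol, stood at 96.8. Thus Hmgcs1 and Sc5d, near the 2 ends of the pathway, were above all other enzymes of the arm under each of 4 length settings. In contrast, the enzymes from Mvk to Fdps were below most of the other enzymes of the arm.

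**Figure D2:**
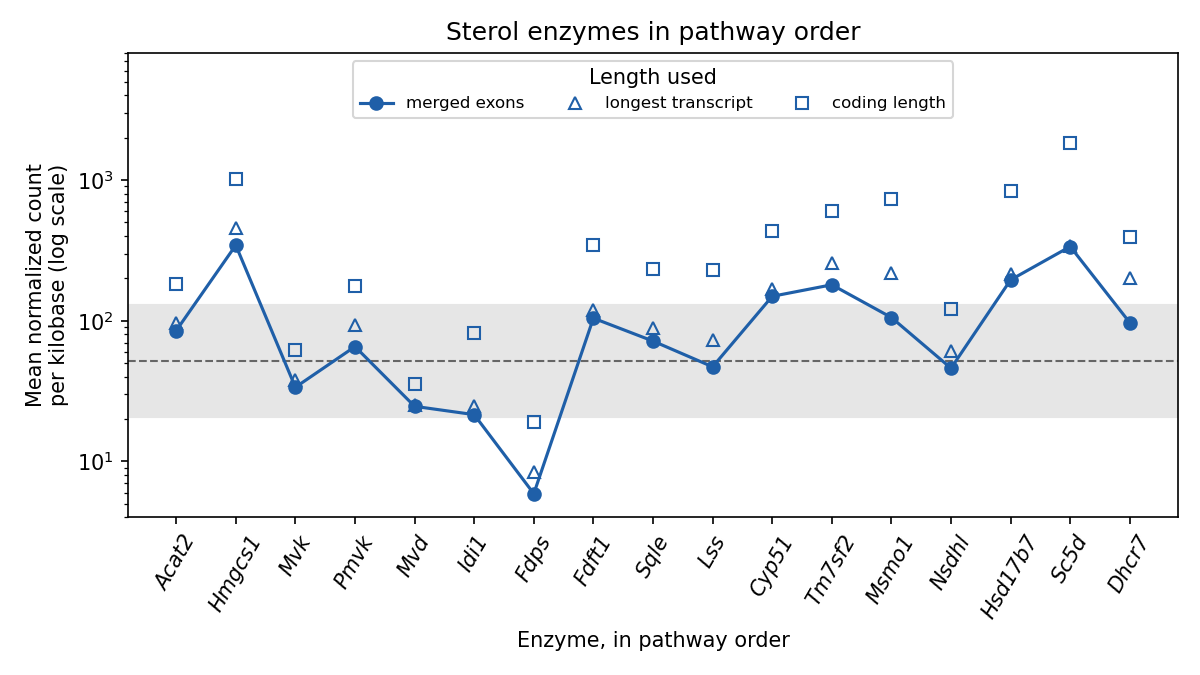
Level of the 17 sterol enzymes on a log axis, placed in the order of the pathway, from Acat2 to Dhcr7. Filled circles are counts per kilobase of merged exons, triangles per kilobase of the longest transcript and squares per kilobase of coding sequence. The dashed line and the grey band are the median and the quartiles of all listed genes per kilobase of merged exons. The dip from Mvk to Fdps appears with each length, and the squares lie higher because coding sequence is shorter than the exons.

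Of the regulators and carriers of the sterol arm, Stard4, a soluble sterol carrier, stood at 262, Scap at 251 and Srebf2, which encodes SREBP-2, at 126. Stard4 lay above 15 of the 17 enzymes and Srebf2 above 12, or above 17 and 9 with coding length. Srebf1 and Srebf2 were nearly level, with a ratio of 1.01 per kilobase of merged exons and 0.81 per kilobase of coding sequence.

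The sterol arm had 0.298 times the median level of the fatty acid arm, 101 against 337. With coding sequence as the length, the ratio was 0.469, with medians of 303 and 647. The arms overlapped in part. Of the fatty acid genes, 7 lay above Hmgcs1, the highest sterol gene, and 3 (Elovl6, Acss2 and Acaca) lay below the sterol median. Of the 20 sterol genes, 1, Hmgcs1, lay above the fatty acid median, with Sc5d just below it. With coding length, 5 did (Hmgcs1, Hsd17b7, Msmo1, Sc5d and Stard4), and 5 fatty acid genes lay above the highest sterol gene. Above the upper quartile of listed genes lay 10 of the 14 fatty acid genes and 7 of the 20 sterol genes. The enzymes that supply acetyl-CoA or turn it into palmitate lay within the range of the sterol enzymes. In contrast, the 5 elongases and desaturases had a median of 1723 and both glycerolipid genes exceeded every sterol gene. With coding length Gpam, at 1629, lay below Stard4 and Sc5d.

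**Figure D3:**
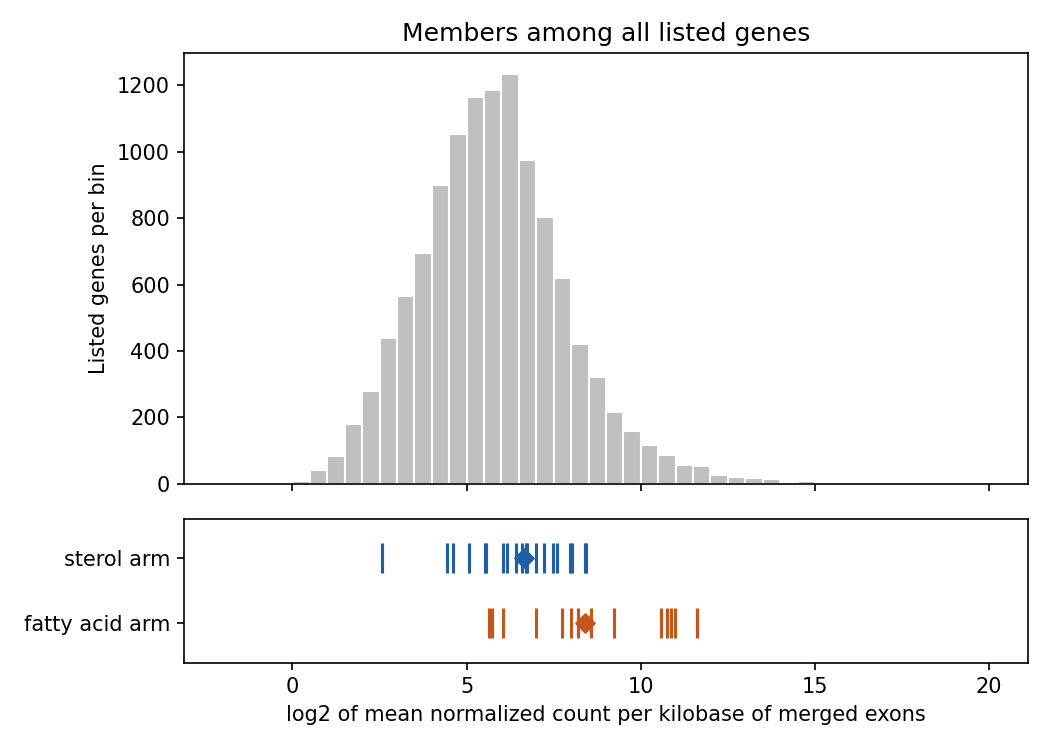
Number of listed genes in bins of log2 level (mean normalized count per kilobase of merged exons, top), with the level of each sterol and fatty acid gene below as a vertical tick and the median of each arm as a diamond. The diamond of the fatty acid arm, at a level of 337, lies to the right of that of the sterol arm, at 101.

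Other genes of both pathways, taken from lists that also named regulators, transporters and related enzymes, spread over the same range. Of 19 other sterol-related genes (among them Lpin1, which acts in glycerolipid synthesis), 18 were listed, with a median of 367, and 10 were in the top 10% of listed genes. Among the highest was Insig2, which holds SCAP in the endoplasmic reticulum, at 1308. The lowest were Ggps1, which makes geranylgeranyl diphosphate, at 20.8, and Soat1, a cholesterol acyltransferase, at 27.0. Npc1l1 was not listed.

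Of 23 other genes of fatty acid and glycerolipid metabolism, 21 were listed, with a median of 334, and 10 were in the top 10%. The highest were Elovl2, which elongates polyunsaturated fatty acids, at 2755, and Hacd3, a dehydratase of the elongation cycle, at 1298. The lowest were Scd2, the desaturase that prevails in brain, at 14.3, and Acsl3, an acyl-CoA synthetase, at 26.8. Elovl3 and Elovl7 were not listed. In several gene pairs a single member prevailed, and these pairs were chosen after their values were seen. Scd1 was 142 times as high as Scd2, Dgat2 was 24.4 times as high as Dgat1, and Insig2 was 3.79 times as high as Insig1. Gpam was 1.87 times as high as Gpat4 per kilobase of merged exons and 1.04 times per kilobase of coding sequence.

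The promoter windows of the members in RefSeq (build GRCm38.p6) were searched on both strands for motifs of factors known to act on these pathways. A window ran from 250 bases before to 50 bases after a transcription start. Promoter sequence did not enter the choice of genes. However, genes and motifs were both picked for the same pathways, so the shares below are not independent of that choice. No window was found for Fdps, Fads1, Fdft1, Scd1, Stard4, Sqle and Dgat2, so their promoters were not searched. Windows were found for 28 of the 35 members, Pnpla3 included, which enters the shares below although it has no level. The CCAAT box, bound by the SREBP partner NF-Y, was in the windows of 23 of them (82.1%), against 42.7% of the 9335 listed genes with a window and 37.4% of all 32851 windows. The GC box GGGCGG, bound by Sp1, was found for 22 members (78.6%) and for 67.7% of the listed genes and 35.7% of all windows. The E-box CACGTG, bound by helix-loop-helix factors such as USF1, was found for 6 members (21.4%) and for 11.8% of the listed genes and 7.15% of all windows. An exact match to TCACNCCAC, a form of the sterol regulatory element bound by SREBP, was found for Hmgcs1 and Mlxipl (7.14% of members), against 1.46% of the listed genes and 1.24% of all windows. The comparison with the listed genes was added after the values were seen. A gene can have more than 1 window, a match is a description and not a bound site, and no difference in these shares was tested.

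The windows around the sterol regulatory element matches are shown because Hmgcs1 and Mlxipl, 1 of each arm, hold the only exact matches found among the members with a window. The match is in capitals, with 20 bases on each side, 5′ to 3′ on the strand of the gene. It begins 137 bases before the start of Hmgcs1 (chr13:119690194-119690242, plus strand) and 136 bases before a start of Mlxipl (chr5:135106735-135106783, plus strand), and neither match overlaps another of the motifs searched.
Hmgcs1: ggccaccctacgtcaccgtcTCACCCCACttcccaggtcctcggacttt
Mlxipl: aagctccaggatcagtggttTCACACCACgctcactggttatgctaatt

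The E-box matches, in capitals, are shown for members of both arms, Elovl5 of the fatty acid arm (chr9:77917184-77917229, plus strand) and Hsd17b7 (chr1:169969323-169969368, minus strand), Dhcr7 (chr7:143823215-143823260, plus strand) and Sc5d (chr9:42264373-42264418, minus strand) of the sterol arm, and for another start of Mlxipl (chr5:135089772-135089817, plus strand). They begin 161, 143, 164, 98 and 98 bases before the start, in the same order. The Scap window also holds a match. The levels of these 6 genes ran from 96.8 for Dhcr7 to 1541 for Elovl5.
Elovl5: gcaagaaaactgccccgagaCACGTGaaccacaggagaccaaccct
Hsd17b7: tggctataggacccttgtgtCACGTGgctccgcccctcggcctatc
Dhcr7: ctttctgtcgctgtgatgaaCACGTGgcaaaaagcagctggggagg
Sc5d: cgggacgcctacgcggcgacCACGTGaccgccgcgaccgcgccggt
Mlxipl: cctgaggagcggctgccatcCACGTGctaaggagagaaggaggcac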

How the data were processed

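Total RNA from liver was fragmented, depleted of ribosomal RNA and made into libraries with a directional kit. The authors aligned the reads with STAR 2.5.3a, counted them on Ensembl genes and normalized the counts by the RLE method of DESeq2. The genome build is not given in the sources used here. The deposited table gives a signal for each gene, the mean normalized count over the compared liver libraries. Another 5 columns hold the comparison of the Luc ASO and LL35 ASO livers by the authors: a log2 fold change with its error, a test statistic, and p-values before and after adjustment. They report the findings of the study and were not used. Mean normalized counts of the listed genes began at 15.6 and had a median of 235. The reads per library are unknown, so no precision can be given.

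Exon, longest transcript and coding lengths were taken from GENCODE M21 by Ensembl identifier, for 11754 of the 11779 genes. Levels are means divided by kilobases of merged exons, with no pseudocount and no filter. Medians and ranks describe groups of genes. Every member is named, with the 2 highest and the 2 lowest genes of each other pathway list, except for an item that is not reported here. The members and lists were chosen with earlier results of these data known. Alternatives changed the length, the pseudocount, a minimum count, the members of the arms and the summary. Steps were tested on simulated data. Python 3.11.15, pandas 2.3.3, numpy 2.4.6 and matplotlib 3.10.9 were used. A planned comparison of paralog proteins was not made, as no protein sequences were used here.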

Additional observations from a re-analysis of the deposited data

How the results depend on the processing

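The ratio of the sterol median to the fatty acid median was 0.298 in the values reported. It stayed below 1 under all 9 alternatives, between 0.201 with no division by length and 0.469 with coding length, and the latter alone moved it by more than 1.5 times. Geometric means gave 0.216, and leaving out Fdps, chosen after the data were seen, gave 0.309. The share of members above the median of all listed genes was 79.4%. It ran from 74.1%, with regulators, carriers and glycerolipid genes left out, to 82.4%, with the longest transcript or coding length. With 1 mismatch allowed, the share of members with a sterol regulatory element match rose from 7.14% to 46.4%, and that of listed genes to 28.5%. No paired analysis was possible because the values are means over libraries. Fits per mouse, with a replicate left out or with another tool, were not run for the same reason.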
